A study of Rattus norvegicus with 6 samples.

Results

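Beside the genes of the rat annotation, the deposited tables of this series list 8949 gene models that the authors typed as new. Described here are the 205 of them that were both abundant and short, out of 24360 gene rows in all. They were chosen by a mean of at least 20 CPM (a count over its library's total, scaled as counts per 1000000) over the 6 samples and a length of at most 600 bases. The choice used the mean over both groups and the length, and not the difference between groups. A model can still reach that mean through high values in a single group. The choice was made with earlier results of these data known. RNA came from H9c2, a myoblast line derived from embryonic rat heart, in 3 control samples (Ctrl, treatment label NC) and 3 samples given ginsenoside Rb2 (Rb2), a saponin of ginseng. All 6 samples carry the same cell line, the genotype label WT and the same protocol text, which describes Rb2 for 48 h, then 4 to 6 h without oxygen and glucose, then 12 h with both restored. Whether the controls were deprived as well is not stated there. Since no label calls the replicates separate cultures, p-values here reflect how far these 6 samples differ, which could be technical variation.

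A new gene model is a stretch of transcribed sequence that a transcript assembly finds outside the genes of the reference annotation. In mammals such models can be genes the annotation lacks, copies of processed transcripts inserted elsewhere in the genome, transcribed repeats, or loose ends of annotated transcripts. The tables give each of the 205 an identifier beginning with ONT, a type, a length and counts, and pair it with no symbol, no annotation text and no position. Which of these kinds a given model is was therefore not analysed here, and no sequence of a model was analysed either. Where such a model copies another gene, reads can be split between both rows, and its count is uncertain to that extent.

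The 205 models ran from 104 to 569 bases, with a median of 219. Most were at the short end: 127 were under 250 bases and 16 had 400 or more. A single transcript row stood behind 195 of them and 2 rows behind the other 10. All 215 transcript rows were typed as new mRNA. The transcript counts summed exactly to the gene count in all 6 samples for all 205. Mean abundance ran from 20.004 to 2361 CPM with a median of 40.7 CPM, 30 models reached 100 CPM and 4 reached 1000 CPM. Abundance and length were nearly unrelated across the models (Spearman's rho -0.06 over 205 models that share the same 6 libraries). The smallest count of any model in any library was 19, so all 205 passed the filter on low counts.

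Total counts were 5193077 to 8793390 per library, with Ctrl replicate 1 the deepest. That library also stood apart on the first principal component of log2 CPM over all genes tested, which held 43.1% of the variance. It lay at -45.7, Ctrl replicates 2 and 3 at -17.0 and 0.74, and the Rb2 libraries at 17.3, 23.0 and 21.7. All Ctrl libraries thus lay below all Rb2 libraries on that component. Of the cardiac muscle markers checked, Tnnt2 was present at 44.1 to 57.5 CPM, Actc1 had no count in any library, and Myh7, Myl2, Myl7 and Tnni3 stayed at or below 0.227 CPM. Of the 12 cardiac markers listed, 10 had a row and 3 were abundant enough to be tested. Beside Tnnt2 these were Gata4 at 5.57 to 7.97 CPM and Nkx2-5 at 0.346 to 8.09 CPM. Nppa and Ryr2 had no row. Most of the 10, chosen as defining markers of the labelled cell type, embryonic cardiomyocyte, were thus too low to be tested. Of the 10 skeletal markers listed 5 were tested, among them Myod1 at 11.7 to 20.8 CPM and Myog at 7.28 to 12.1 CPM. Myh3, Tnnt1, Ckm and Chrna1 reached at most 0.682, 0.963, 0.718 and 1.36 CPM and were not tested, and Myf5 had no row. The skeletal sums were 38.2 to 47.1 CPM in Ctrl and 50.5 to 57.8 CPM in Rb2, and the cardiac sums 55.9 to 70.7 and 55.8 to 66.2 CPM. Fibroblast markers summed to 1460 to 2120 and 1920 to 2530 CPM, with Dcn at 0 and Pdgfra at or below 0.17 CPM. Epithelial markers summed to 30.3 to 39.2 and 35.4 to 40.6 CPM, all of it Krt8, and leukocyte and endothelial markers to at most 2.7 and 0.181 CPM. None of the tested markers on any of these lists was called, and their part in the results below was not tested. Over all genes 219 were called higher and 93 lower in Rb2, 2.7% of those tested. The split was 461 and 80 with library size only, 135 and 92 with upper-quartile factors, and 135 and 114 with a length offset.

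As a share of all counts the 205 models took 2.11%, 2.29% and 1.97% in the Ctrl libraries (replicates 1, 2 and 3 in order, here and below) and 1.99%, 1.98% and 2.13% in the Rb2 libraries. The groups overlapped. The means were 2.12% ± 0.16 in Ctrl and 2.04% ± 0.086 in Rb2 (SD, n = 3), a difference of -0.0888 percentage points, which is smaller than the spread between replicates. Ctrl replicate 2 carried most of it: without that library the difference was -0.00481 percentage points. Much of the share lay in few models. The 10 most abundant held 48.0% of the models' counts and the top 2, ONT.13739 and ONT.5743, held 20.1%.

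Between the groups, 8 of the 205 models were lower in Rb2 and none was higher at an edgeR adjusted p under 0.05 over all 11551 genes tested. That is 3.90% of the models called lower, where 0.805% of all genes tested were called lower, and 0% called higher, where 1.90% of all genes were. Of new models over 600 bases with at least 20 CPM, 3.37% were called lower and 4.49% higher. Of known genes with at least 20 CPM, 0.81% were called lower and 3.13% higher. At an unadjusted p under 0.05, 45 models were lower (8.17% of all genes tested were) and 8 were higher (11.8% of all genes were). Of the 8 called models, 6 were at least 2-fold lower. As in any bulk sample, fewer cells of a type and less RNA per cell cannot be told apart. The plot of values by sample shows that in each of the 8 the lowest Ctrl library lay above the highest Rb2 library.

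**Figure D1:**
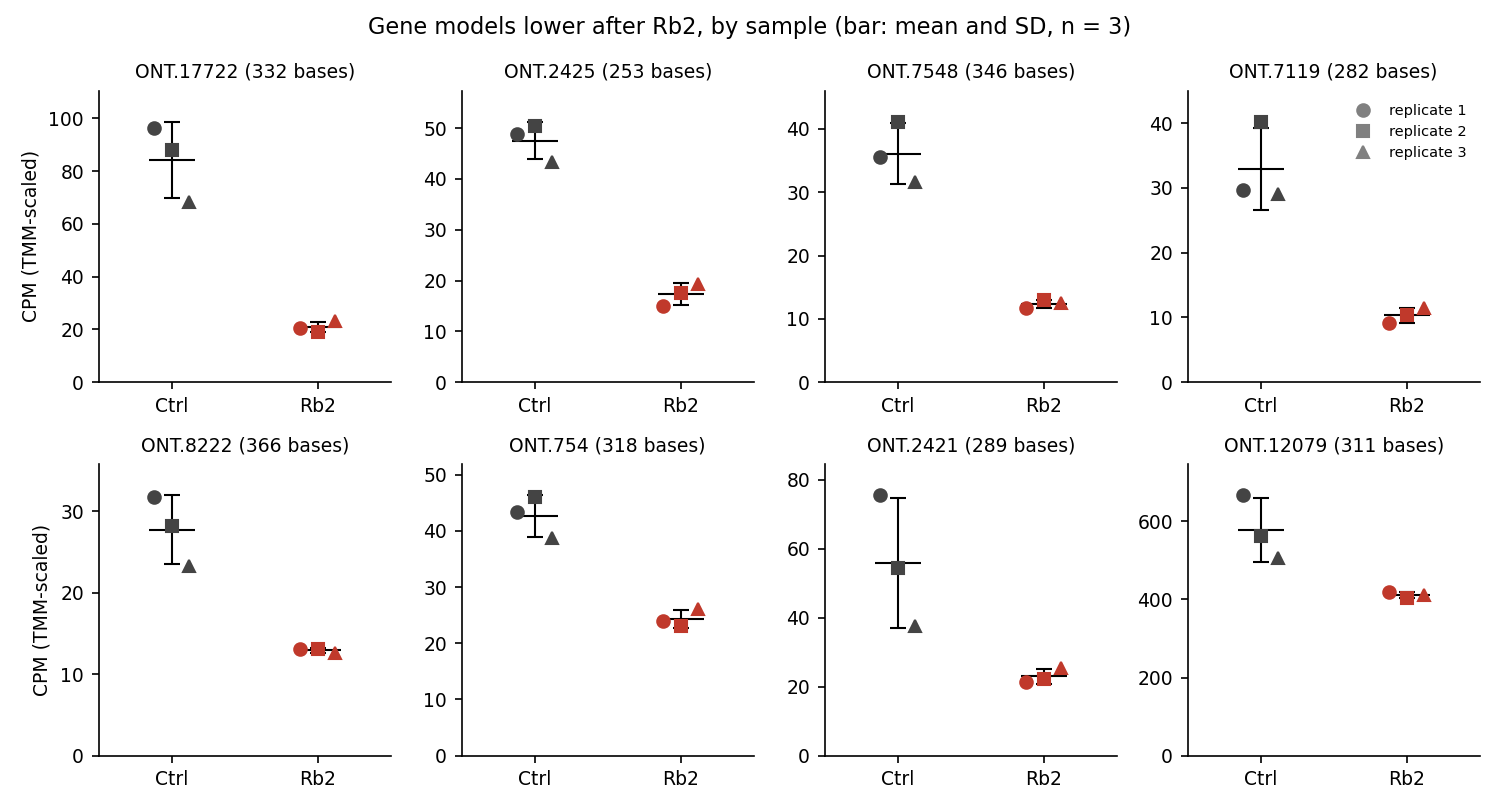
CPM scaled by TMM factors (y axis, from 0) in the 3 Ctrl and 3 Rb2 samples for each of the 8 models called lower, ordered by p. Points are samples, and bars are the mean and SD (n = 3). In ONT.17722 the Ctrl samples lie at 68.4 to 96.4 CPM and the Rb2 samples at 19.1 to 23.0 CPM.

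ONT.17722, a model of 332 bases with 1 transcript row, had the smallest p of all 11551 genes tested, annotated genes included. Its counts, scaled to CPM by TMM library factors, were 96.4, 88.2 and 68.4 in Ctrl against 20.5, 19.1 and 23.0 in Rb2. The lowest Ctrl library was 2.97 times the highest Rb2 library. The means were 84.3 ± 14.4 and 20.9 ± 1.99 CPM (SD, n = 3), a log2 fold change of -2.01 (SE 0.16, 95% interval -2.37 to -1.66, edgeR adjusted p = 0.00134). Among the 93 genes called lower, 9 had a larger fall. It was the 1 model of the 8 whose call held in every one of 21 alternatives run, with log2 fold changes from -2.13 to -1.72.

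ONT.7119, ONT.7548 and ONT.2425 were the next largest falls. ONT.7119 (282 bases) was at 29.7, 40.2 and 29.0 CPM in Ctrl and at 9.19, 10.3 and 11.5 CPM in Rb2 (log2 fold change -1.67, SE 0.19, edgeR adjusted p = 0.00575). ONT.7548 (346 bases) was at 35.6, 41.1 and 31.6 CPM against 11.7, 12.9 and 12.4 CPM (-1.55, SE 0.16, edgeR adjusted p = 0.00362). ONT.2425 (253 bases, the shortest of the 8) was at 48.8, 50.5 and 43.4 CPM against 15.03, 17.6 and 19.4 CPM (-1.46, SE 0.15, edgeR adjusted p = 0.00362). In these 3 models the lowest Ctrl library was 2.24 to 2.52 times the highest Rb2 library. Each of the 3 lost its call without Rb2 replicate 2, with an edgeR adjusted p = 0.066, 0.066 and 0.0745 for ONT.2425, ONT.7548 and ONT.7119, and each kept it without any other single library.

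The other 4 falls were smaller against their own spread. ONT.2421 (289 bases) had the widest Ctrl values of the 8, at 75.5, 54.4 and 37.7 CPM, against 21.2, 22.2 and 25.4 CPM in Rb2 (log2 fold change -1.29, SE 0.23, edgeR adjusted p = 0.0356). ONT.8222 (366 bases) was at 31.7, 28.2 and 23.3 CPM against 13.1, 13.1 and 12.6 CPM (-1.10, SE 0.17, edgeR adjusted p = 0.0194). Its mean of 20.014 CPM puts it just inside the abundance limit.

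ONT.754 (318 bases) was at 43.3, 46.0 and 38.7 CPM against 23.9, 23.1 and 26.1 CPM (-0.81, SE 0.14, edgeR adjusted p = 0.0272). These 3 calls were lost without Ctrl replicate 2 and without any 1 of the Rb2 libraries, at an edgeR adjusted p of 0.0717 to 0.189, while their log2 fold changes stayed between -1.36 and -0.75. ONT.12079 (311 bases) was the 1 abundant model of the 8, at 666, 563 and 505 CPM in Ctrl and 420, 405 and 412 CPM in Rb2. Its fall was the smallest (log2 fold change -0.49, SE 0.11, 95% interval -0.73 to -0.25, edgeR adjusted p = 0.0464), and the call was lost in 14 of the 21 alternatives. One of its 2 transcript rows, of 264 bases, held 99.4% of its counts.

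The 8 models fell in a narrow part of the range of length that the choice of members allowed. All lay between 253 and 366 bases, while none of the 127 models under 250 bases was called. This range was seen after the calls and did not hold just under the abundance limit. At 10 to 20 CPM, ONT.2554 (200 bases), ONT.18976 (230), ONT.17126 (370) and ONT.6883 (442) were called lower outside it. ONT.9229 (261 bases) was called lower inside it. Each abundance band held a call, with 3 of 66 models at 20 to 30 CPM and 3 of 57 at 30 to 50. There was 1 of 52 at 50 to 100 CPM and 1 of 30 at 100 CPM or more. Apart from ONT.12079 the 8 models were at 20.014 to 51.3 CPM on average. ONT.7119, ONT.7548, ONT.8222 and ONT.2425 had Rb2 means of 10.3, 12.3, 12.9 and 17.3 CPM (TMM-scaled). They reached the limit of 20 CPM through their Ctrl values, and the share of models called lower includes them. In all 8, Ctrl replicate 3 was the lowest of the Ctrl libraries. The same held in 153 of the 205 models and in 56 of the 93 genes called lower. At the level of transcript rows, where 16679 rows were tested and none was called (0%; 13.8% had an unadjusted p under 0.05), none of the models' 210 tested rows was called by edgeR, and 46 had an unadjusted p under 0.05. The rows of ONT.17722, ONT.2425 and ONT.7548 came closest (edgeR adjusted p = 0.0538). DESeq2 called 9 of the models' rows, all lower (0.827% of all rows tested), and edgeR without Ctrl replicate 1 called 4, all lower (0.159%).

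How many models were called, and whether any was higher, depended on the fit and on the libraries kept. With all 6 libraries DESeq2 called 10 lower and 1 higher (0.822% and 2.8% of all genes), and edgeR on every row with a count called 9 lower and 2 higher (0.655% and 1.69%). With library size only there were 7 lower and 3 higher (0.693% and 3.99%), as there were with limma on log2 CPM plus 1 (0.753% and 4.45%) and plus 0.1 (0.684% and 4.16%). Without Ctrl replicate 1 there were 14 lower (2.45% of all genes tested then) and 3 higher (5.08%), all 8 among them, and without Ctrl replicate 3 there were 13 lower (1.76%), again with all 8. Without Ctrl replicate 2 there were 4 lower (0.109%) and 1 higher (0.0167%). Without Rb2 replicates 1, 2 and 3 there were 4, 1 and 4 lower (0.115%, 0.0247% and 0.0826%). ONT.17722, ONT.2425, ONT.7548 and ONT.7119 were the 4 that remained without Ctrl replicate 2, Rb2 replicate 1 or Rb2 replicate 3. They were also the 4 with an adjusted p under 0.01 (0.113%).

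**Figure D2:**
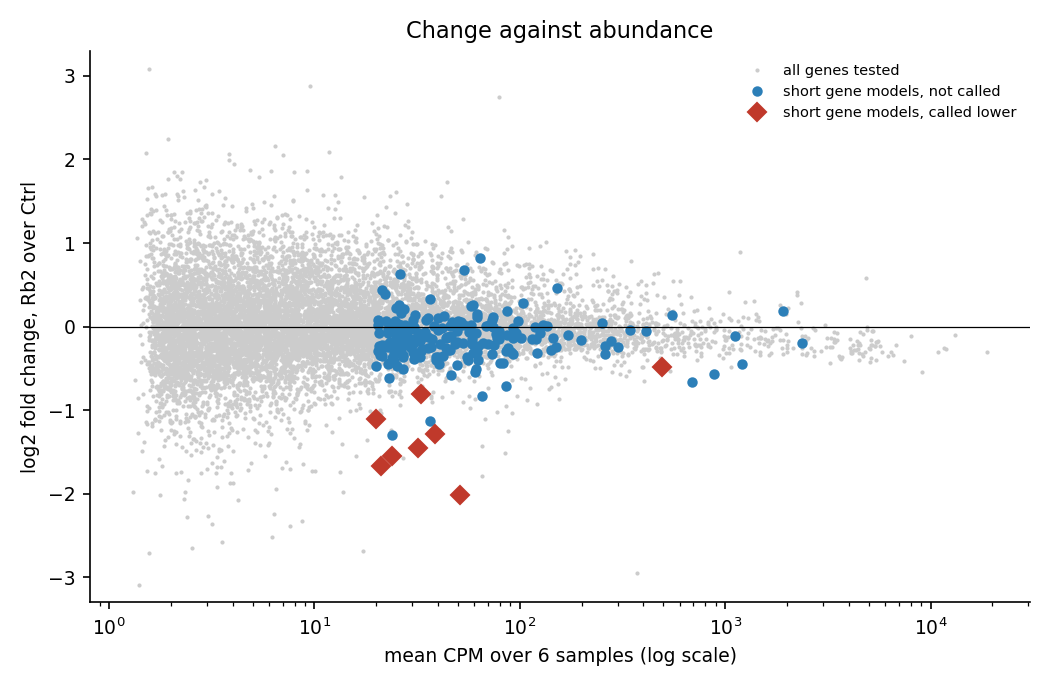
Log2 fold change of Rb2 over Ctrl (y axis) against mean CPM over the 6 samples (x axis, log scale) for all 11551 genes tested in grey, the 197 short models not called in blue and the 8 called lower in red. The red points lie at log2 fold changes of -2.01 to -0.49.

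Across all 205 models the fold changes were shifted a little below 0, as the plot of change against abundance shows. The median log2 fold change was -0.16, with quartiles at -0.31 and -0.01, and 155 of 205 (75.6%) were below 0. Over all genes tested the median was -0.02 and 52.0% were below 0. The groups did not overlap, with Rb2 lower, in 59 models (28.8%; 12.2% of all genes tested), and with Rb2 higher in 11 (5.37%; 15% of all genes). The shift was similar in each abundance band, with medians of -0.21 in 66 models at 20 to 30 CPM, -0.15 in 57 at 30 to 50, -0.14 in 52 at 50 to 100 and -0.15 in the 30 at 100 CPM or more.

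Short annotated genes had much the same median fold change, though they were longer and more abundant than the models. Their medians were 500 bases and 594 CPM, against 219 bases and 40.7 CPM in the 205 models. The 55 known genes of at most 600 bases with a mean of at least 20 CPM had a median log2 fold change of -0.17, 47 of them were below 0 and none was called. The most abundant of these were Rpl32 and Rps19, which encode ribosomal proteins, at log2 fold changes of -0.24 and -0.27 (edgeR adjusted p = 0.131 and 0.0892). Beside them stood LOC108350501 (-0.26) and LOC100360522 (-0.36), which did not pass either (edgeR adjusted p = 0.20 and 0.113). The 20 short rows typed lncRNA at that abundance had a median of -0.19, with 1 called lower (5%). All 82 tested genes with a ribosomal protein symbol had a median of -0.23, with 2 called lower and 1 higher, and the 10 tested mitochondrially encoded genes one of 0.10, with none called. Known genes of any length with at least 20 CPM had a median of -0.02. The 89 new models over 600 bases at that abundance had a median of -0.07, with 3 called lower (3.37%) and 4 higher (4.49%). New models as short but under 20 CPM had a median of -0.20, and 31 of the 1853 tested (1.67%) were called lower. The 8 models described here are thus part of 44 new models called lower in all, and of the other 36, 33 had under 20 CPM and 5 were over 600 bases, with some in both classes. These comparison sets were described and not tested against each other.

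**Figure D3:**
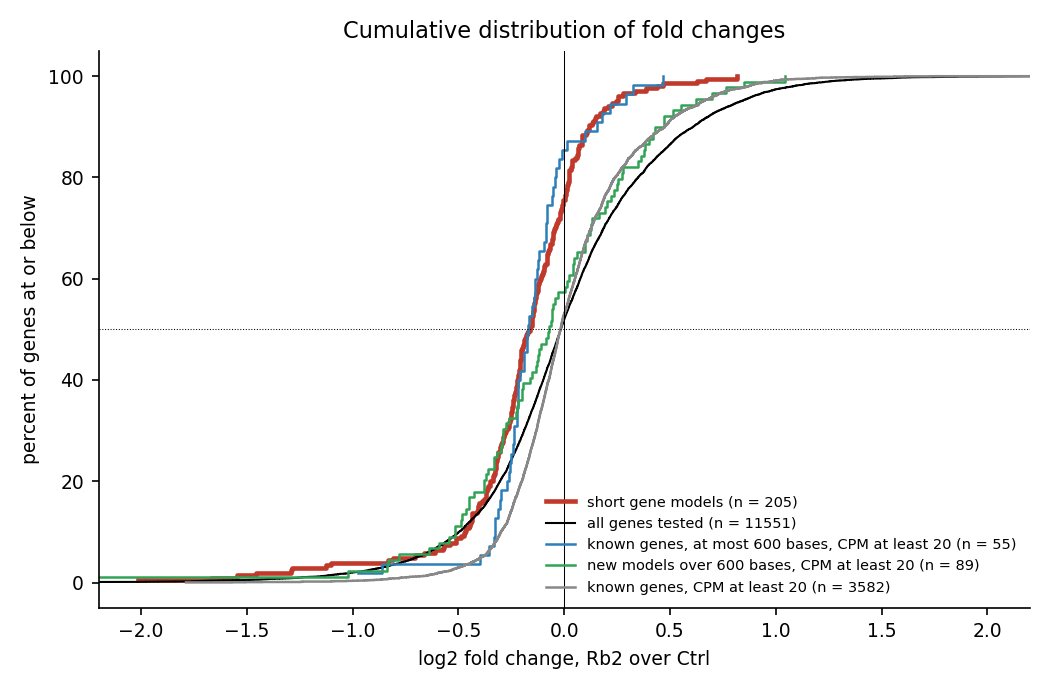
Percent of genes (y axis) with a log2 fold change of Rb2 over Ctrl at or below the value on the x axis. The red line (205 short models) crosses 50% at -0.16, close to the blue line of 55 short known genes at -0.17, while the black line of all genes tested crosses it at -0.02.

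Taken by library, the models' shift did not separate the groups. The median of the 205 models' log2 levels, each set against its own mean over the 6 samples, was 0.09, 0.21 and -0.06 in Ctrl against -0.09, -0.12 and -0.01 in Rb2. Ctrl replicate 3 lay inside the Rb2 range. Ctrl replicate 2 was the highest library in 117 of the 205 models, Ctrl replicate 1 in 48 and Ctrl replicate 3 in 3. Left out in turn, Ctrl replicate 2 gave a median log2 fold change of -0.10 and Ctrl replicate 3 one of -0.22. The mean gene length behind a count was 1693, 1695 and 1747 bases in Ctrl and 1761, 1767 and 1763 bases in Rb2. The 2 libraries with the highest medians of the short models had the shortest mean length. Ctrl replicate 3, however, had a shorter mean length than Rb2 replicate 3 and a lower median. By share of counts Rb2 replicate 3 (2.13%) lay above Ctrl replicate 1 (2.11%). A link between length and the shift was not tested.

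With an offset for gene length in each library, the median of the 205 models turned to 0.04, and 90 were below 0. The offset is a curve of each library's deviation on gene length, fitted over the genes tested themselves. It takes out average change linked to length, so medians near 0 in short sets follow from the offset itself. The median of the 55 short known genes turned to 0.06 in the same fit, and that of all genes tested was -0.04. Most of the calls stayed. Under the offset 7 of the 8 called models were still called lower (0.987% of all genes tested were called lower), with log2 fold changes of -1.78 in ONT.17722, -1.44 in ONT.7119, -1.31 in ONT.7548, -1.24 in ONT.2425, -1.04 in ONT.2421, -0.87 in ONT.8222 and -0.58 in ONT.754. ONT.12079 was at -0.26 and did not pass (edgeR adjusted p = 0.121). Under the offset with Ctrl replicate 1 left out, 9 models were lower and 12 higher (4.82% and 3.79% of all genes tested), and with Ctrl replicate 2 left out 1 was lower and 1 higher (0.0585% and 0.00835%). Within the 205 models themselves length and fold change were only weakly related (Spearman's rho -0.12 over 205 models from the same libraries). Medians were -0.45 in the 5 models under 150 bases, all of them below 0, then -0.10 in the 76 models from 150 to under 200 bases, -0.14 in 46 from there to under 250, -0.24 in 32 to under 300, -0.21 in 30 to under 400 and -0.20 in the 16 of 400 or more. Not all of the 5 shortest stayed below 0 without Ctrl replicate 1. ONT.11399, ONT.12173 and ONT.3775 were then at -0.28, -0.26 and -0.48, and ONT.13214 and ONT.99 at 0.02 and 0.08.

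**Figure D4:**
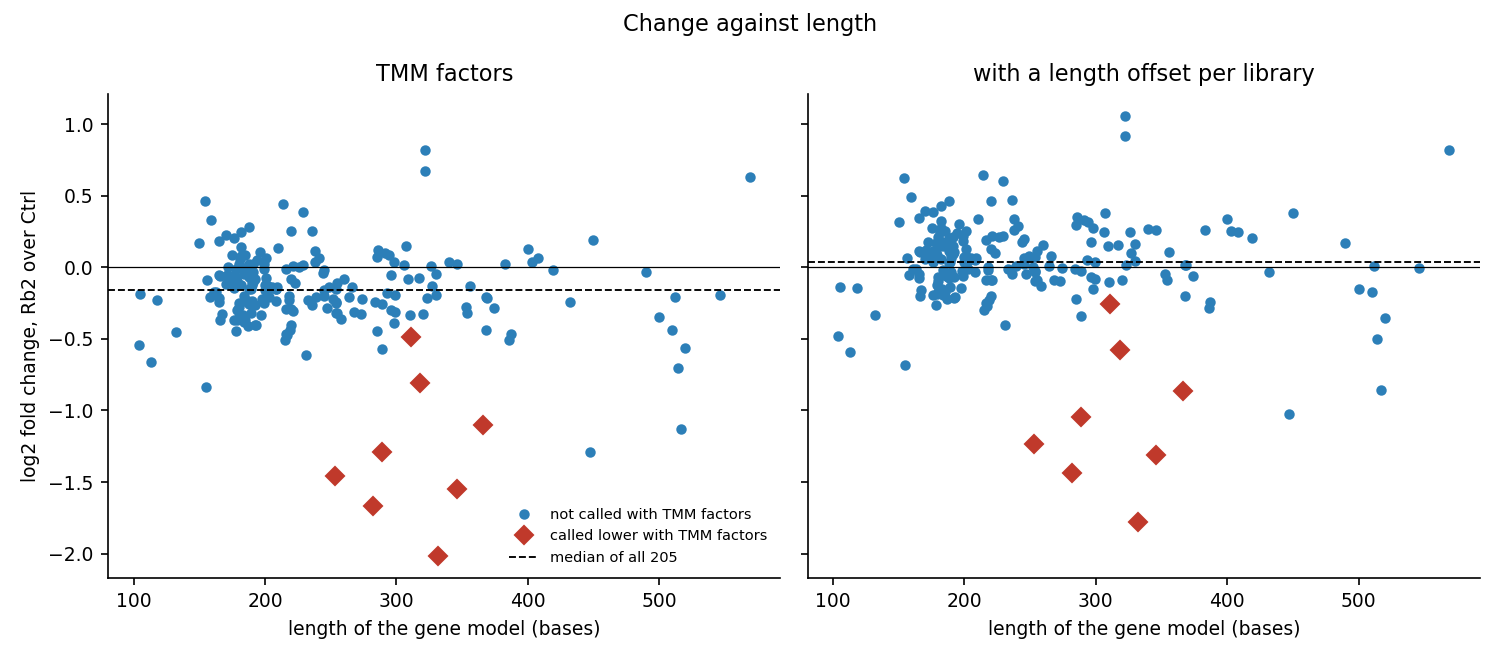
Log2 fold change of Rb2 over Ctrl (y axis) against the length of the gene model in bases (x axis) for the 205 models, with TMM factors on the left and with a length offset in each library on the right. Red diamonds are the 8 models called lower with TMM factors, and the dashed line is the median, at -0.16 on the left and 0.04 on the right.

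Among the 10 most abundant models, ONT.12079 was called and the other 9 were not. Per length, ONT.11399 (132 bases) had the highest level of all 205, at 9196 CPM per kilobase, followed by ONT.15057 (170 bases) at 6576 and ONT.12173 (113 bases) at 6111. ONT.13739 (546 bases) and ONT.5743 (450 bases), the highest without regard to length, came next at 4324 and 4258 CPM per kilobase. The median over the 205 models was 173.6 CPM per kilobase. These levels use the full length of a model, with no correction for reads that cannot start near an end. They also assume that counts grow with length, which was not tested here and depends on the read type, which is unsettled.

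ONT.13739 was at 2169, 3041 and 2356 CPM in Ctrl and at 2196, 2264.5 and 2168 CPM in Rb2, so that the Rb2 values lay within or at the edge of the Ctrl range (log2 fold change -0.19, 95% interval -0.45 to 0.07, edgeR adjusted p = 0.40). ONT.5743 was at 1293, 2079 and 1979 CPM against 1962, 1902 and 2226 CPM, with Ctrl replicate 1 low and the other 5 libraries alike (0.19, interval -0.20 to 0.57, edgeR adjusted p = 0.576, and 0.02 without that library). ONT.15057 was at 1156, 1349 and 991 CPM against 1090, 1016 and 1118 CPM, with every Rb2 value inside the Ctrl range (-0.12, interval -0.37 to 0.13). These intervals leave out a 2-fold change in either direction.

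ONT.16251 (520 bases) and ONT.11399 had groups that did not overlap and still missed the threshold. ONT.16251 was at 1295, 1019 and 874 CPM in Ctrl and 759, 691 and 704 CPM in Rb2 (log2 fold change -0.57, SE 0.13, edgeR adjusted p = 0.0582). It passed with DESeq2 (adjusted p = 0.0121), without Ctrl replicate 1 (-0.38, edgeR adjusted p = 0.00542) and without Ctrl replicate 3 (-0.68, edgeR adjusted p = 0.0179). ONT.11399 was at 1697, 1381 and 1158 CPM against 1075, 1029 and 997 CPM (-0.45, SE 0.13, edgeR adjusted p = 0.0892), and passed without Ctrl replicate 1 (-0.28, edgeR adjusted p = 0.0294) and without Ctrl replicate 3 (-0.56, edgeR adjusted p = 0.0201).

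**Figure D5:**
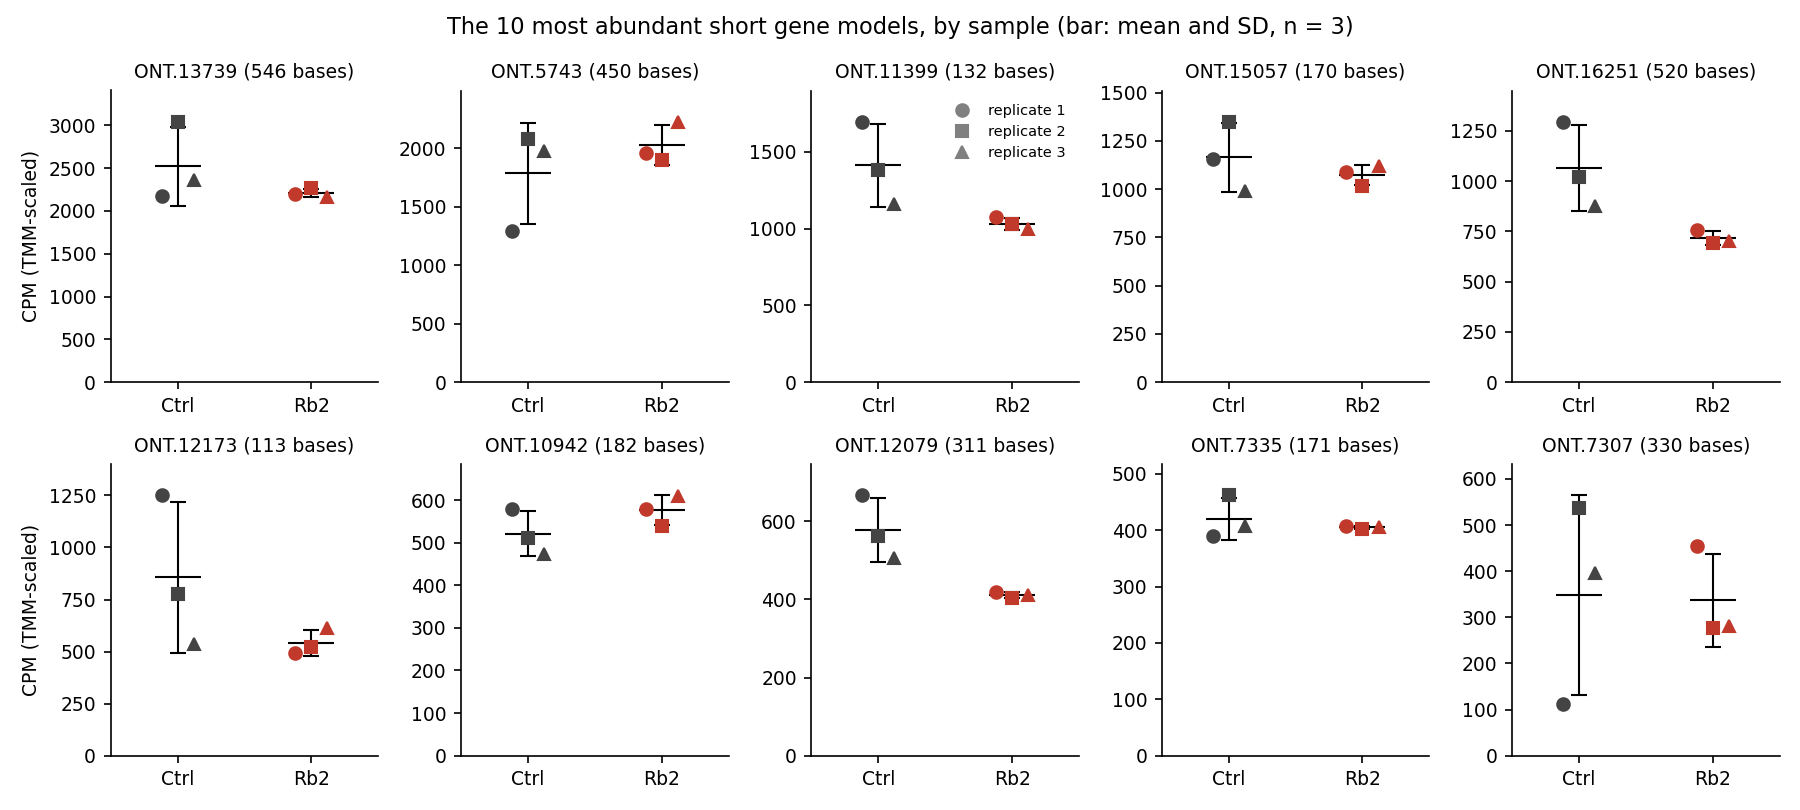
CPM scaled by TMM factors (y axis, from 0) in the 3 Ctrl and 3 Rb2 samples for the 10 most abundant short models, ordered by mean CPM. Points are samples, and bars are the mean and SD (n = 3). In ONT.7307, Ctrl replicate 1 lies at 112 CPM against 536 and 397 CPM in the other Ctrl libraries.

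The other 4 of the 10 overlapped between groups. ONT.12173 was at 1251, 779 and 538 CPM in Ctrl and 494, 520 and 611 CPM in Rb2, with Ctrl replicate 1 far above the rest (log2 fold change -0.66, interval -1.39 to 0.07, edgeR adjusted p = 0.287). Without that library it was -0.26 (edgeR adjusted p = 0.563). ONT.10942 was at 578, 512 and 473 CPM against 579, 539 and 610 CPM (0.14, edgeR adjusted p = 0.44), and without Ctrl replicate 1 it passed as higher (0.24, edgeR adjusted p = 0.0463). ONT.7335 had the tightest values of the 10, at 390, 462 and 407 CPM against 407, 402 and 405 CPM (-0.05, interval -0.25 to 0.15). ONT.7307 was at 112, 536 and 397 CPM against 454, 277 and 282 CPM, with an interval of -1.51 to 1.42 that takes in a 2-fold change in either direction (-0.04, edgeR adjusted p = 0.978, and -0.45 without Ctrl replicate 1).

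Replicates of most models lay close together. The median within-group SD of log2 CPM was 0.148 over the 205 models, against 0.144 over known genes with at least 20 CPM. In 12 models the SD passed 0.5 in at least 1 group. ONT.8592 (387 bases, 20.004 CPM, the lowest mean of the 205) had the widest spread, at 13.9, 33.4 and 23.1 CPM in Ctrl and 3.36, 38.2 and 8.59 CPM in Rb2. ONT.236 (517 bases) was next, at 110, 22.4 and 20.5 CPM in Ctrl and 23.3, 25.1 and 22.7 CPM in Rb2, so that a single library, Ctrl replicate 1, made its log2 fold change of -1.13 (edgeR adjusted p = 0.456). Without that library it was 0.16. ONT.16300 (447 bases), picked out after its values were seen, was likewise high in Ctrl replicate 1, at 65.9 CPM against 21.4 and 16.3 CPM in Ctrl and 13.2 to 15.2 CPM in Rb2 (-1.29, edgeR adjusted p = 0.258, and -0.38 without that library). ONT.236 and ONT.16300 were the 2 models at least 2-fold lower that were not called, beside the 6 that were; 1.97% of all genes tested had fitted falls of that size.

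In edgeR with TMM factors, the filter on low counts, all libraries and no length offset, no model rose at the threshold. A few came near it, and these too were picked out after their values were seen. ONT.568 (569 bases, the longest of the 205) was at 22.9, 19.8 and 18.2 CPM in Ctrl and 35.0, 26.3 and 33.1 CPM in Rb2 (log2 fold change 0.63, SE 0.17, edgeR adjusted p = 0.0745). ONT.18995 (322 bases) was at 44.2, 48.1 and 29.7 CPM against 66.7, 57.3 and 70.7 CPM (0.67, SE 0.18, edgeR adjusted p = 0.0772). ONT.12441 (188 bases) was at 96.1, 93.0 and 90.6 CPM against 116, 109 and 114 CPM (0.28, SE 0.09, edgeR adjusted p = 0.134). In all 3 the groups did not overlap. ONT.18995 was the 1 called higher by DESeq2, ONT.568 and ONT.18995 were those called on every row with a count, and all 3 were called with library size only and on both log2 CPM fits. All 3 also passed under the length offset, at 0.82, 0.92 and 0.46 (edgeR adjusted p = 0.0376, 0.0247 and 0.0493; 1.17% of all genes tested were called higher there). That offset by itself moved the median of all 205 models from -0.16 to 0.04. ONT.12441 has 2 transcript rows of 181 bases each, given here in deposited CPM without TMM scaling. Its smaller row swung from 0 CPM in Rb2 replicate 2 and 1.82 CPM in Ctrl replicate 1 to 30.9 CPM in Ctrl replicate 2, and the larger row ran the other way, from 57.1 CPM in Ctrl replicate 2 to 114 CPM in Rb2 replicate 2, while their sum ran from 88.1 to 120.2 CPM on that scale.

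In the 10 models with 2 transcript rows the larger row held 52.0% to 100% of the counts. ONT.9234 was the most even, with rows of 310 and 368 bases at 48.0% and 52.0%. The second rows of ONT.7385 and ONT.4288 had no count, or a count in 1 library alone, across these 6 samples.

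For most of the 205 models the interval of the change was narrow. The 95% interval of the log2 fold change reached a median of 0.33 to either side, and in 185 models it lay wholly within a 2-fold change either way. Just inside the abundance limit stood ONT.8592, ONT.8222 and ONT.9224 (20.3 CPM), and just outside it ONT.3248, ONT.910 and ONT.3483 at 19.9, 19.8 and 19.8 CPM, with log2 fold changes of -0.30, 0.09 and -0.62. Just inside the length limit stood ONT.568, ONT.13739 and ONT.16251. Just outside it stood ONT.2815 (610 bases), ONT.3643 (612 bases) and ONT.15541 (621 bases), at 0.10, -0.06 and -0.12.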

How the data were processed

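The authors deposited whole-number counts per gene and per transcript, with a type and a length for each row, and tables of the same rows in CPM. Each deposited CPM value equals the count over its column total, per 1000000 (largest difference 4.91e-11). The submitters' processing notes name HISAT2, DESeq2 and mm10 without their roles, but known genes carry rat identifiers, so no build is assumed and no position is given. For the counter, assembler and annotation the sources used here name nothing. Per the labels' protocols the libraries were made with an mRNA kit for short reads, whereas new models have identifiers that begin with ONT, so the read type is unsettled. Each table has a further 18 columns that belong to no sample analysed here and were left out.

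Counts per gene, and separately per transcript, went through edgeR 4.0.16 (R 4.3.3) over all rows: TMM factors, filterByExpr on group, a robust quasi-likelihood fit on group, Benjamini-Hochberg adjustment, and a call at an adjusted p under 0.05. A log2 fold change is Rb2 over Ctrl, with a standard error derived from the F statistic and a 95% interval from the t distribution. The fit was tested on simulated data. The closest 2 libraries still differed beyond sampling noise (chi-square per degree of freedom 1.71).

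The members, the comparison sets and the rule for named models were chosen with earlier results of these data known. The rule names the 10 most abundant models, called models by p, the 3 nearest on either side of each limit, the 2 with the widest spread, and the 4 most abundant short known genes. Without annotation text it allows 2 called models in each direction. All 8 are named, those past the first 2 after their values were seen. Planned classes by annotation text could not be formed. Alternatives were other scalings and filters, DESeq2 1.42.0, limma 3.58.1 (voom, and log2 of deposited CPM plus 1 or 0.1), a replicate block, a length offset (loess, span 0.5), other thresholds and limits, and each library left out. The offset with Ctrl replicate 1 or 2 left out was chosen after seeing the data.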

Additional observations from a re-analysis of the deposited data

How the results depend on the processing

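The total of 8 called models stayed within 1.5 times under RLE, upper-quartile and known-gene TMM factors, library size only, both other filters, DESeq2, limma-voom, both log2 CPM fits and the length offset. Its direction did not: 1 to 3 models were called higher with DESeq2, every row with a count, library size only, both log2 CPM fits and the length offset. Of all genes tested, 312 were called (219 higher, 93 lower). That count was 541 with library size only, 536 with any row that had a count, 601 and 559 on log2 CPM plus 1 and plus 0.1, 33 with the replicate block, and 17 at an adjusted p under 0.01. The replicate block and the adjusted p under 0.01 each left the same 4 models called lower, ONT.17722, ONT.2425, ONT.7119 and ONT.7548 (0.182% and 0.113% of all genes tested). Same-numbered samples did not deviate together (correlations of -0.069, -0.067 and -0.011), so the block pairs samples that share a number alone.

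Leaving out 1 library gave 3 to 896 called genes and 1 to 17 called models, the fewest without Rb2 replicate 2 and the most without Ctrl replicate 1. The difference in the models' share of counts ran from -0.165 to -0.00481 percentage points. Transcript rows called among the models went from 0 to 9 with DESeq2 and to between 0 and 4 with a library left out, 4 of them without Ctrl replicate 1. With other limits for members, 14 models were called at 10 CPM or more (13 lower and 1 higher of 406), 2 at 50 CPM or more (both lower, of 82) and 3 at 300 bases or fewer (all lower, of 159), where 0.805% of all genes tested were called lower and 1.9% higher. The 1 called higher was ONT.14241 (238 bases, 14.4 CPM, log2 fold change 0.90, edgeR adjusted p = 0.0499).

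The median log2 fold change of -0.161 was -0.045 with library size only, where the median of all genes moved from -0.016 to 0.097 and the gap between the medians from -0.145 to -0.142, and -0.04 and -0.041 on log2 CPM plus 1 and plus 0.1. Under the length offset, which takes out average change linked to length, the models' median reversed (0.037). With Ctrl replicate 1 or 2 left out as well, it was 0.014 and 0.058, with 1025 and 8 genes and 21 and 2 models called. The cause was not tested.

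Models that were not called changed sign in some fits. With Ctrl replicate 2 left out under the offset, ONT.13739 was at 0.13, ONT.15057 at 0.09, ONT.7335 at 0.11, ONT.7307 at 0.51 and ONT.8592 at 0.05. With the offset and all libraries, ONT.15057 was at 0.06, ONT.7335 at 0.12 and ONT.7307 at 0.16. With the offset and Ctrl replicate 1 left out, ONT.15057 was at 0.05, ONT.7335 at 0.06 and ONT.236 at 0.27. ONT.15057 was at 0.01 on both log2 CPM fits and without Ctrl replicate 2. ONT.7335 was at 0.06 with library size only, 0.07 on both log2 CPM fits and 0.03 without Ctrl replicate 2. ONT.7307 was at 0.06 with library size only, 0.23 with limma-voom, 0.30 on both log2 CPM fits, 0.13 with the block, and -0.45 to 0.42 with 1 library left out. With 1 library left out, ONT.15057 ranged from -0.21 to 0.01, ONT.7335 from -0.08 to 0.03, ONT.8592 from -1.96 to 0.01 (the last without Rb2 replicate 1) and ONT.236 from -1.49 to 0.16 (the last without Ctrl replicate 1). None of the reversed values passed the threshold.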
